A study of Mus musculus with 12 samples.

Results

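The 9 genes described here encode stefins and cystatins, inhibitors of papain-like cysteine proteases, and were followed across 12 RNA-seq libraries of mouse bone marrow cells. They were taken by gene symbol: Stfa1, Stfa2, Stfa3, Stfa2l1, Cstdc4, Cstdc5, Cstb, Cst3 and Cst7. All 9 symbols were present once in both deposited count tables, which list 55487 genes each, and all 9 passed the filter on low counts in every comparison.

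Per the labels, the 4 groups of 3 libraries were MLL::AF9 cells with a retrovirus expressing sPrdm16 (MA9 sPrdm16), MLL::AF9 cells with a mock retrovirus (MA9 mock), normal bone marrow cells with the sPrdm16 retrovirus (WT sPrdm16) and normal bone marrow cells with the mock retrovirus (WT mock). MLL::AF9 is a fusion oncogene of acute myeloid leukaemia and was itself delivered by a retrovirus, so the MA9 cells had been through a transduction more than the WT cells. Prdm16 is a zinc-finger transcriptional regulator, and the labels name the expressed form sPrdm16 without describing it further. The labels give a medium with mouse IL-3 for the MA9 cells only. They give no age or strain of the mice, no number of donors or clones and no sort of the cells, and nothing in them says that the 3 libraries of a group came from separate cultures, and p-values therefore speak of the spread between libraries, which may be technical.

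Stefins and cystatins fold into a wedge that blocks the active-site cleft of cysteine cathepsins. Stefins lack a signal peptide and act inside the cell, in the cytosol, against proteases that leak from lysosomes. Cystatin C, the product of Cst3, is secreted by most cell types, and cystatin F, the product of Cst7, is made mainly in blood cells and reaches their lysosomes and granules. In the mouse the stefin A gene has multiplied into a cluster whose members are known for expression in myeloid cells, neutrophils among them.

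The libraries differed in composition. Totals ran from 17217159 to 37390945 counts. Structural RNA genes took 18.6% to 18.8% of the counts in MA9 sPrdm16 and 59.1% to 74.2% in MA9 mock, against 1.41% to 2.46% in the WT libraries. Nuclear protein-coding genes held 16905133 to 28169209 counts in MA9 sPrdm16 and 3844558 to 7406093 in MA9 mock, and MA9 mock replicate 3 had the fewest. That library also stood apart from the rest of its group, with a chi-square per gene of 124 and 101 against MA9 mock replicates 1 and 2, which differed from each other by 22.6, while pairs within the other groups lay between 3.50 and 22.1. Prdm16 itself followed the labels, with 5353 to 8889 counts in MA9 sPrdm16 against 0 in each MA9 mock library and 708 to 950 counts in WT sPrdm16 against 0 to 22 in WT mock. Myeloid markers were high in the WT libraries, where the 20 monocyte and macrophage markers summed to 24920 to 25836 CPM (counts relative to library size, TMM-scaled within a genotype) with sPrdm16 and 28092 to 31692 CPM with mock. In MA9 libraries they summed to 910 to 919 and 784 to 1185 CPM, and C1qa, C1qb and C1qc were at 0 in both groups. The 8 erythroid markers summed to at most 1.03 CPM in MA9 sPrdm16 and 0.672 CPM in MA9 mock, and the 10 lymphoid markers to at most 3.46 and 3.28 CPM, so these markers of other bone marrow lineages were near 0 in MA9 cells.

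The genes lie at 4 places in the mm10 genome. The 6 stefin A genes sit together on chromosome 16, in the order Stfa2l1 (ENSMUSG00000059657.5, 36156811 to 36161953, plus strand), Cstdc4 (ENSMUSG00000079597.2, 36184212 to 36188111, plus), Stfa1 (ENSMUSG00000071562.6, 36276951 to 36285373, plus), Cstdc5 (ENSMUSG00000071561.2, 36359382 to 36367748, minus), Stfa2 (ENSMUSG00000022902.8, 36403992 to 36408457, minus) and Stfa3 (ENSMUSG00000054905.2, 36450537 to 36455392, minus). Cstb, the gene of stefin B, is on chromosome 10 (ENSMUSG00000005054.7, 78425669 to 78427622, plus). Cst3 (ENSMUSG00000027447.6, 148871722 to 148875692, minus) and Cst7 (ENSMUSG00000068129.5, 150570415 to 150578944, plus) are on chromosome 2. All are annotated as protein-coding. Their coding transcripts have 3 exons, except that of Cst7 with 4.

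The coding sequences of the stefin A genes are near copies of each other, which bears on how far their counts can be told apart. Among the 15 pairs of the 6 genes, 73.1% to 97.9% of the aligned coding bases were identical. The closest pairs were Stfa1 with Cstdc5 (97.94%) and Stfa2 with Stfa2l1 (96.44%). Identity to Cstb was 52.1% to 61.7%, and identity to Cst3 or Cst7 was 41.4% to 44.8%. Of all windows of 75 bases in the coding transcript, 23.5% of those of Cstdc4 and 22.4% of those of Cstdc5 occurred in a transcript of another gene as well, as did 10.7% for Stfa1, 7.83% for Stfa2l1 and 5.79% for Stfa2. Stfa3, Cstb, Cst3 and Cst7 shared no such window. The deposited values of Stfa1, Cstdc4 and Cstdc5 were not whole numbers in 6 of 6 WT libraries and in 2 of 6 MA9 libraries, and those of the 4 genes with no shared window were whole in every library. Counts of the single stefin A genes other than Stfa3 therefore carry an uncertainty from the authors' counting, and the sum over the 6 genes is given beside them. The sum does not remove all of it. Cstdc4 shares its windows with Csta2, Cstdc5 some with Cstdc6 and Stfa2l1 some with Gm49652, which are outside the sum.

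**Figure D1:**
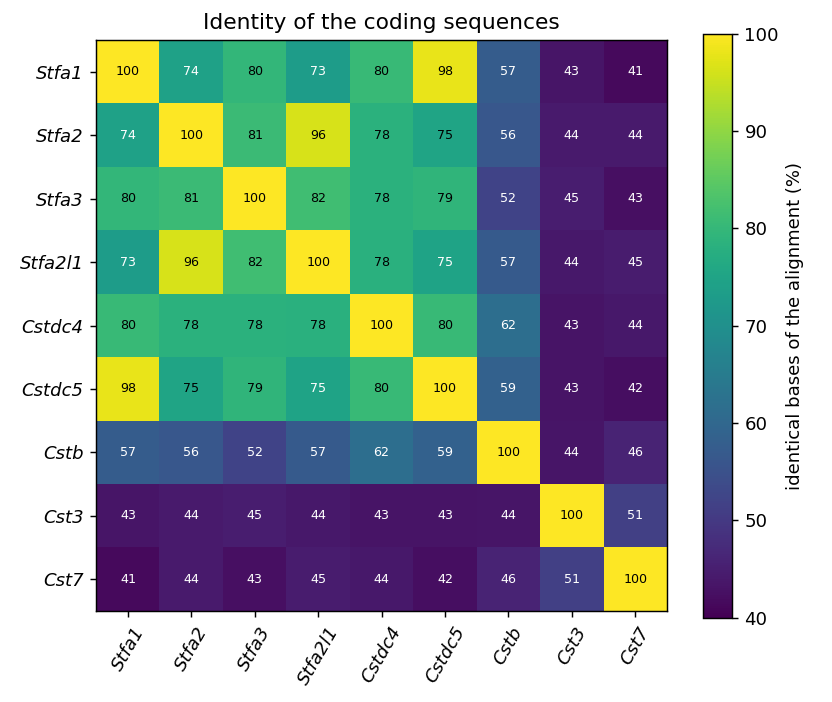
Share of identical bases (%) in the aligned coding sequences of each pair of the 9 genes, as a coloured grid with the rounded value in each cell. The 6 stefin A genes form a block from 73.1% to 97.9%, Cstb lies at 52.1% to 61.7% from them, and Cst3 and Cst7 at 41.4% to 44.8%.

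The promoters of the stefin A genes are shown because the 6 genes changed together in WT cells. Promoter sequences (RefSeq, GRCm38.p6, 250 bases before to 50 after the transcription start) were found for 8 of the 9 genes, Cstb being without an entry. Runs of letters shared by all 6 stefin A promoters were looked for after the sequences had been seen. Their presence in these 6 was thus fixed in advance, and the counts of promoters given below include these 6. Genes that are near copies can share such letters by descent, and a part of the runs in the joint change was not tested. Those in capitals are CACACTCATT, AGAGGAGGAG and ACCTTTAAAACCC, in that order, and the sequences run from 110 bases before the start to the base 2 after it.
Stfa2l1 (chr16:36156701-36156812, plus strand): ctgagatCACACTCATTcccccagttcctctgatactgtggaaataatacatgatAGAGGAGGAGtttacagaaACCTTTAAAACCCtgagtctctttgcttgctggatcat
Cstdc4 (chr16:36184102-36184213, plus strand): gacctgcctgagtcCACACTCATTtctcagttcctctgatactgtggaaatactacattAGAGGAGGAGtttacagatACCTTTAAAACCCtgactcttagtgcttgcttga
Stfa1 (chr16:36277038-36277149, plus strand): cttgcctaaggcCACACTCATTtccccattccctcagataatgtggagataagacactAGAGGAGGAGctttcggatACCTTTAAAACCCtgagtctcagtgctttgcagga
Cstdc5 (chr16:36367569-36367680, minus strand): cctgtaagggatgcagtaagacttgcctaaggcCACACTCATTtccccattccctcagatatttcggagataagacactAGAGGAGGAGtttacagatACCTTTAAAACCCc
Stfa2 (chr16:36408362-36408473, minus strand): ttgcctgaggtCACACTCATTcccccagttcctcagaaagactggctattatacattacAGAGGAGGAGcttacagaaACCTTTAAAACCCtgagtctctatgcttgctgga
Stfa3 (chr16:36455391-36455502, minus strand): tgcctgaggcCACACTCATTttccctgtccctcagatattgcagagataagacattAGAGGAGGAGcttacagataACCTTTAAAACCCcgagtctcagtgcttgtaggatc
The run ACCTTTAAAACCC begins 36 to 32 bases before the start in 5 of the genes and 12 bases before it in Cstdc5. It was present on either strand in 9 of 32851 promoters of the table (0.0274%), CACACTCATT in 37 (0.113%) and AGAGGAGGAG in 337 (1.03%). A further run, GATCATTTCTTCT, begins near the start itself, from 4 bases before it in Stfa2l1 to base 22 in Cstdc5, and was present in 10 promoters (0.0304%). The RefSeq starts of Stfa1, Cstdc5 and Stfa2 lie inside the gene bounds given above. The sequences shown for Stfa1 (bound 36276951) and Cstdc5 (bound 36367748) lie wholly within the gene, and most of that for Stfa2 (bound 36408457) does. Positions in these genes, the offset of Cstdc5 among them, thus depend on the start used.

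Known motifs were also searched for, on both strands. The letters TATAAA of the TATA box were in 0 of the 8 promoters, against 13.6% of all promoters. TTNNGNAA, a pattern like that bound by C/EBP factors, was in 6 of 8 (Stfa1, Stfa2, Stfa2l1, Cstdc4, Cstdc5 and Cst7), against 40.7% of all. GAGGAA, a pattern like that bound by PU.1, was in 7 of 8 (not in Cst7), against 28.3% of all. No match of these patterns overlapped another or a shared run. Matches are letters in the window only, and no binding was measured. The 6 stefin A promoters can share these letters by descent too. The 8 promoters are thus not separate draws to set against all promoters.

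**Figure D2:**
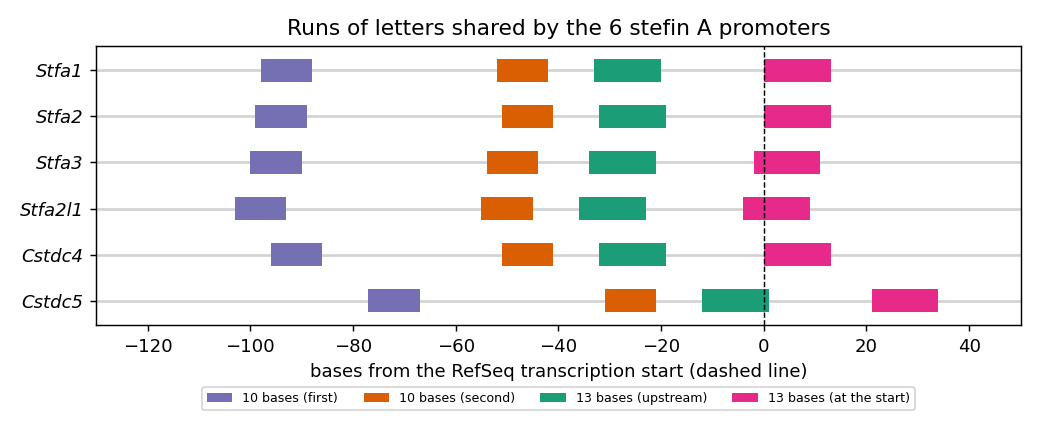
Positions of the 4 runs of letters shared by all 6 stefin A promoters, in bases from the RefSeq transcription start (dashed line). The runs keep their order in every gene. Measured from the RefSeq starts, those of Cstdc5 lie farther downstream. Their 13-base upstream run begins 12 bases before the start, against 36 to 32 in the other 5 genes. The RefSeq starts of Stfa1, Cstdc5 and Stfa2 lie inside the gene bounds, so positions in these genes depend on the start used.

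Levels of the genes differed widely by group. Given as RPKM (counts per gene length and library size, TMM-scaled over all 12 libraries, means ± SD, n = 3), Cst3 was the highest of the 9 in MA9 cells, with 115 ± 5.22 in MA9 sPrdm16 and 160 ± 30.7 in MA9 mock. Next in MA9 sPrdm16 came Cstb (16.4 ± 0.804) and Cstdc5 (14.2 ± 2.39), whose ranges overlapped, then Stfa1 (6.91 ± 0.529) and Cst7 (4.53 ± 0.254), while Stfa2, Cstdc4 and Stfa2l1 lay between 2.62 and 3.52 and Stfa3 at 0.761 ± 0.338. In MA9 mock Cst7 (21.8 ± 0.910) was above Cstb (14.6 ± 2.45), which did not separate from Cstdc5 (13.04 ± 5.85), and the other 5 lay between 2.80 and 5.87 with SDs of 1.05 to 2.55, so they had no clear order.

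In WT cells the order was another one. WT sPrdm16 had Cstb (809 ± 54.3 RPKM) and Cst3 (690 ± 30.1 RPKM) first, then Stfa1 (172 ± 9.10) and Cstdc5 (158 ± 13.2), which lay within their spread, then Cstdc4 (43.4 ± 3.01), Cst7 (42.5 ± 5.58) and Stfa2l1 (30.6 ± 5.13), and last Stfa2 (16.9 ± 0.988) and Stfa3 (15.7 ± 0.536). WT mock had Cstdc5 on top (1992 ± 225 RPKM), before Cstb (1156 ± 50.03), Stfa1 (951 ± 131) and Cst3 (642 ± 25.8). Stfa2l1 (385 ± 74.9), Cstdc4 (341 ± 55.0), Stfa3 (319 ± 33.7) and Stfa2 (305 ± 65.6) followed without separating, and Cst7 was lowest (106 ± 1.63). The gene length of Cstdc4 in the tables is 1859 bases while its coding transcript has 414, so its place in this order depends on the length used.

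For all 9 genes the highest MA9 mock library lay below the lowest WT mock library. The 6 stefin A genes summed to 25.3 ± 5.96 CPM in MA9 mock and 2891 ± 396 CPM in WT mock on the scale of all 12 libraries, and Cstb stood at 8.79 ± 1.48 against 697 ± 30.2 CPM. The gap was narrower for Cst3 (138 ± 26.4 against 552 ± 22.2 CPM) and Cst7 (21.5 ± 0.897 against 105 ± 1.61 CPM). Each genotype has a deposited table of its own, so genotype and table cannot be told apart here, and these gaps were not tested.

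**Figure D3:**
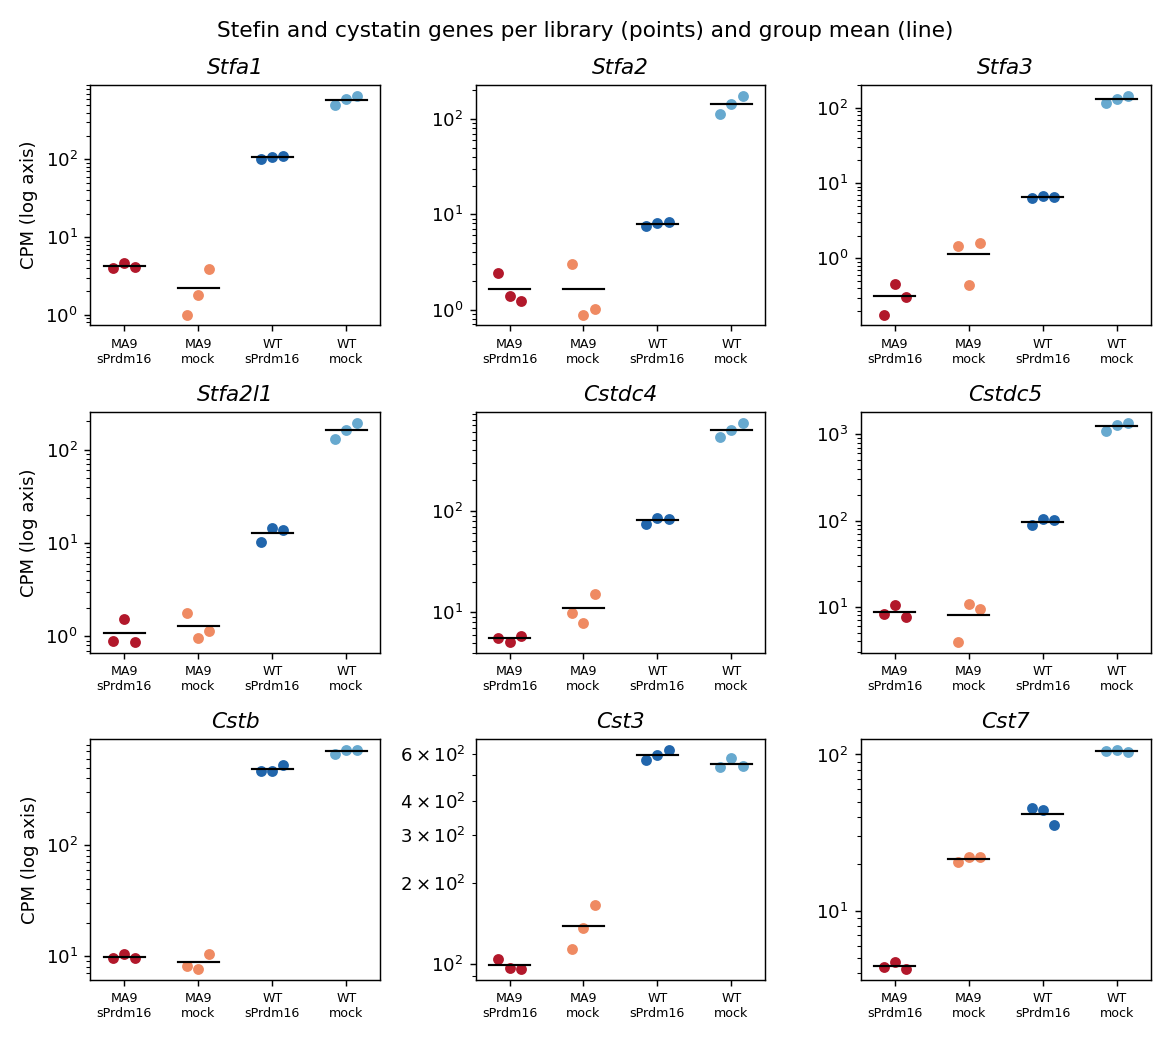
CPM of each gene in each library (points, log axis, TMM-scaled over all 12 libraries) and the group mean (line), 3 libraries per group. In WT cells the sPrdm16 points of the 6 stefin A genes lie below all mock points, while in MA9 cells the groups overlap for Stfa1, Stfa2, Stfa3, Stfa2l1, Cstdc5 and Cstb.

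In WT cells sPrdm16 went with a fall of all 6 stefin A genes. Together they had 7158, 7358 and 7221 counts in WT sPrdm16 and 54084, 62411 and 70846 counts in WT mock, or 385 ± 26.0 against 3595 ± 483 CPM on the scale of the WT libraries (SD, n = 3 each). The sum was 9.33-fold lower with sPrdm16 (log2 -3.22, SE 0.11, edgeR adjusted p = 2.2e-11). Of the 9 genes 8 fell and 0 rose, where 34.1% of the 14063 genes tested were called, 17.5% rising and 16.6% falling. The median log2 fold change of the 9 was -2.98, against 0.01 over all genes. The 8 genes that fell had groups that did not overlap, as had 46.6% of all genes tested. In bulk RNA, fewer cells of a type and less RNA per cell cannot be told apart.

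Stfa3, a stefin A gene with no window shared with another gene, had the largest fall. It did not separate from that of Stfa2 (log2 -4.18, SE 0.16), since the SEs overlapped. Stfa3 had 156, 152 and 144 counts in WT sPrdm16 and 2555, 2823 and 3139 in WT mock (8.001 ± 0.265 against 163 ± 16.8 CPM). This was 20.4-fold lower (log2 -4.35, SE 0.13, adjusted p = 3.4e-12, edgeR). The libraries of a group lay close together, and no WT sPrdm16 library came near the lowest mock library.

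Stfa2 and its near copy Stfa2l1 had overlapping levels in WT mock, while in WT sPrdm16 Stfa2 was lower (9.84 ± 0.569 against 15.8 ± 2.64 CPM). Stfa2 had 186, 182 and 187 counts in WT sPrdm16 against 2473, 3023 and 3799 in WT mock, 18.1-fold lower (log2 -4.18, SE 0.16). Stfa2l1 had 258, 324 and 308 counts against 2831, 3454 and 4176, 12.7-fold lower (log2 -3.67, SE 0.16). Both had wider spread in mock, with SDs of 38.0 CPM around 178 and 38.6 CPM around 201.

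Cstdc5 and Cstdc4, further stefin A paralogues, held most of the stefin A counts in WT mock. Cstdc5 had 2200, 2347 and 2254 counts in WT sPrdm16 against 23618, 26904 and 29374 in WT mock, or 121 ± 9.99 against 1533 ± 169 CPM, 12.7-fold lower (log2 -3.67, SE 0.11). Cstdc4 had 1855, 1932 and 1839 counts against 11684, 13406 and 16048, 7.92-fold lower (log2 -2.98, SE 0.12). Stfa1, the near copy of Cstdc5, fell least of the 6, with 2503, 2421 and 2489 counts against 10923, 12801 and 14310, 5.56-fold lower (log2 -2.47, SE 0.10). The adjusted p of these 5 genes was at most 3.8e-10 (edgeR).

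Because the 6 genes fell by different factors, their make-up shifted. As a share of the 6 genes' counts per gene length, Stfa1 made up 39.5% ± 1.23 in WT sPrdm16 and 22.2% ± 0.152 in WT mock, and Cstdc5 made up 36.1% ± 0.687 against 46.5% ± 1.16 (SD, n = 3 each). Stfa2 held 3.87% ± 0.102 against 7.04% ± 0.588 and Stfa3 3.61% ± 0.172 against 7.45% ± 0.238. These shares did not overlap between the groups, and 3 libraries against 3 cannot reach a 2-sided exact p below 0.10, so they were not tested. With the length of the coding transcript in place of the gene length, an alternative chosen after seeing the data, Stfa1 held 29.3% ± 0.988 against 17.3% ± 0.200 and Cstdc5 26.8% ± 0.447 against 36.4% ± 1.13, and Cstdc4 held 33.1% ± 0.448 against 27.9% ± 0.696. In MA9 cells the shares rested on few counts: Cstdc5 held 45.8% ± 2.59 in MA9 sPrdm16 and 40.5% ± 17.7 in MA9 mock, and Stfa1 22.4% ± 1.47 against 10.6% ± 5.28. With the length of the coding transcript Cstdc5 held 34.3% ± 3.33 against 25.3% ± 12.8 there, and Cstdc4 32.4% ± 4.42 against 49.6% ± 6.29. The gene with the largest share thus depends on the length used in WT sPrdm16 and MA9 mock. In WT mock and MA9 sPrdm16 it was Cstdc5 with either length. With the coding transcript in MA9 sPrdm16, Cstdc5 and Cstdc4 lay within their spread.

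**Figure D4:**
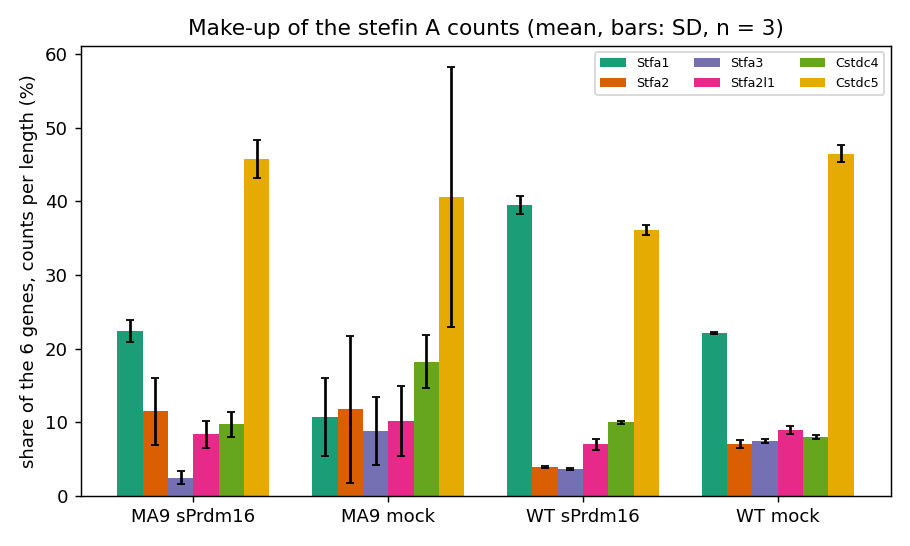
Share of each stefin A gene (%) in the 6 genes' counts per gene length, as group means with SD bars, 3 libraries per group. In WT sPrdm16 Stfa1 is the largest share with 39.5%, in WT mock Cstdc5 with 46.5%, and the MA9 mock bars have SDs of up to 17.7. With the length of the coding transcript, not drawn here, Cstdc4 is the largest share in WT sPrdm16 with 33.1%.

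Further genes were read from a list of related stefin genes. Of 8 in the tables, 3 were tested in WT cells and all 3 fell. These 3 lie on chromosome 16, as the stefin A genes above do. Not all of the 8 belong to that cluster, since Cstdc1 and Cstdc2 are on chromosome 2 and Cstdc7 is on chromosome 18. Csta2, which shares windows with Cstdc4, stood at 47.3 ± 3.92 CPM in WT sPrdm16 and 145 ± 22.6 CPM in WT mock (log2 -1.62, SE 0.12). Cstdc6, which shares windows with Cstdc5, stood at 1.69 ± 0.807 against 19.5 ± 5.30 CPM (log2 -3.53, SE 0.34), and Csta3 at 0.573 ± 0.235 against 5.69 ± 2.29 CPM (log2 -3.30, SE 0.50). In MA9 cells Csta2 alone was tested, at 0.460 ± 0.170 CPM in MA9 sPrdm16 and 0.464 ± 0.449 CPM in MA9 mock, and was not called (adjusted p = 0.871, edgeR), but with total counts it was called higher (log2 1.71, adjusted p = 0.0382).

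Many markers of myeloid cells fell in WT cells, where 16.6% of all genes tested fell and 17.5% rose. Of 23 neutrophil markers 18 fell and 3 rose (median log2 -2.16), the 3 being Mpo (log2 2.16), Elane (0.61) and Prtn3 (0.64). The summed level of the 23 was 8976 to 9344 CPM in WT sPrdm16 against 37738 to 43536 CPM in WT mock. None of them was at 0 in either group. Of 13 tested mast cell and basophil markers 12 fell and 1 rose, with sums of 603 to 658 against 5819 to 6423 CPM, and Mcpt4 was the one at 0 in WT sPrdm16. Of 7 tested eosinophil markers 6 fell, with sums of 16.4 to 23.4 against 302 to 346 CPM, and Ear1 and Ccr3 were at 0 in WT sPrdm16. Of 18 tested monocyte and macrophage markers 11 fell and 2 rose, and their sums given above were lower in WT sPrdm16. Of 5 tested megakaryocyte markers 3 fell and 0 rose, and of 8 tested erythroid markers 3 rose and 2 fell. Of 8 tested dendritic cell markers 6 rose, with sums of 2786 to 3124 against 748 to 871 CPM. The part of these cell types in the fall of the stefins was not tested.

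In MA9 cells the stefin A genes did not move together. Their sum was 711, 1135 and 596 counts in MA9 sPrdm16 and 293, 307 and 224 counts in MA9 mock, or 16.9 ± 1.16 against 21.1 ± 5.33 CPM (log2 -0.30, SE 0.16, adjusted p = 0.190, edgeR). Of the 9 genes 4 fell and 0 rose (Stfa3, Cstdc4, Cst3 and Cst7), where 34.6% of the 14394 genes tested were called, 17.1% rising and 17.5% falling. On the scale of the MA9 libraries the groups of these 4 did not overlap, as was the case for 50% of all genes tested, and on the scale of all 12 libraries those of Stfa3 did overlap. The median of the 9 was -0.34, against 0.03 over all genes. What counts as a rise or a fall in MA9 cells is set by the scaling: with libraries scaled to total counts alone, the median over all genes was 1.43 and 5 of the 9 genes rose and 1 fell.

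Cstdc4 had 185, 246 and 174 counts in MA9 sPrdm16 and 137, 106 and 105 in MA9 mock, or 4.31 ± 0.354 against 9.13 ± 3.26 CPM. It fell by 1.05 on the log2 scale (SE 0.25, adjusted p = 0.00964, edgeR), but with total counts its value was 0.44 (adjusted p = 0.291). Over 16 alternatives its adjusted p ran from 0.00023 to 0.291. Stfa3 had 6, 22 and 9 counts against 20, 6 and 11, or 0.245 ± 0.106 against 0.965 ± 0.524 CPM, and fell by 1.89 (SE 0.65, adjusted p = 0.0481). These are counts near the limit of what the libraries can show, and the call of Stfa3 ended without MA9 mock replicate 1 or 3 (adjusted p = 0.133 and 0.0821), without MA9 sPrdm16 replicate 1, 2 or 3 (0.188, 0.0968 and 0.152), with no filter (0.0630), with the replicate block (0.141) and with total counts (log2 -0.45, 0.573). It had no value with protein-coding genes only, with the stricter filter or in thinned libraries, where it did not pass the filter. Over its 13 alternatives the adjusted p ran from 0.0042 to 0.573.

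The other 4 stefin A genes were not called in MA9 cells. Stfa1 had 135, 223 and 122 counts in MA9 sPrdm16 and 14, 24 and 27 in MA9 mock, or 3.33 ± 0.217 against 1.86 ± 1.27 CPM (log2 0.95, SE 0.42, adjusted p = 0.111, edgeR). The highest mock library, replicate 3 at 3.28 CPM, overlapped the sPrdm16 libraries at 3.16 to 3.58 CPM, and without it Stfa1 was called higher (log2 1.54, adjusted p = 0.0030). It was also called with no filter (0.0207), with limma-voom (0.0176), in a fit on all 12 libraries (0.0030) and with total counts (log2 2.48). Over its 16 alternatives the adjusted p ran from 2.0e-06 to 0.285. Cstdc5 had 275, 505 and 229 counts against 55, 146 and 66, or 6.88 ± 1.06 against 6.74 ± 3.03 CPM (log2 0.06, SE 0.32, and 1.52 with total counts, adjusted p = 0.00020).

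Stfa2 stood at 1.30 ± 0.500 CPM in MA9 sPrdm16 and 1.36 ± 0.987 CPM in MA9 mock (log2 -0.12, SE 0.53, and 1.21 with total counts, adjusted p = 0.0428). Stfa2l1 stood at 0.856 ± 0.273 against 1.08 ± 0.360 CPM (log2 -0.34, SE 0.45). Both groups overlapped for each gene, and the values rest on 7 to 80 counts per library for Stfa2 and 8 to 73 for Stfa2l1.

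Stefin B, the product of Cstb, is made in nearly all cells, and its loss in humans causes a progressive myoclonic epilepsy. Cstb had 11665, 10649 and 11716 counts in WT sPrdm16 and 14494, 15187 and 15507 in WT mock, or 603 ± 40.4 against 867 ± 34.5 CPM. It fell by 0.52 on the log2 scale in WT cells (SE 0.08, adjusted p = 0.00019, edgeR), with every sPrdm16 library below every mock library. In MA9 cells it had 323, 503 and 284 counts against 114, 104 and 73, or 7.74 ± 0.284 against 7.34 ± 1.35 CPM (log2 0.10, SE 0.17, adjusted p = 0.686). Those groups overlapped, and with total counts Cstb was called higher (log2 1.55, adjusted p = 0.00012). Over the 16 alternatives in MA9 cells its adjusted p ran from 0.00012 to 0.9999.

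Cst3, the gene of secreted cystatin C, was called lower in MA9 cells and not in WT cells. In MA9 cells it had 3472, 4634 and 2833 counts with sPrdm16 and 1570, 1831 and 1155 with mock, or 77.1 ± 3.67 against 115 ± 23.7 CPM. It fell by 0.57 (SE 0.13, adjusted p = 0.00711, edgeR), and with total counts it was called higher instead (log2 0.90, adjusted p = 0.00644). Over its 16 alternatives the adjusted p ran from 0.00014 to 0.0368. In WT cells it had 14132, 13433 and 13796 counts against 11736, 12245 and 11772, or 733 ± 31.6 against 686 ± 25.8 CPM (log2 0.09, SE 0.08, adjusted p = 0.390), with overlapping groups, and was the one gene of the 9 not called there. With total counts it was called higher in WT cells (log2 0.27, adjusted p = 0.0119, the lowest over 16 alternatives, the highest being 0.663).

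Cst7, the gene of cystatin F, which is known to restrain cathepsin C in cytotoxic and myeloid cells, fell in both genotypes. In MA9 cells it had 147, 228 and 126 counts with sPrdm16 and 285, 300 and 153 with mock, or 3.49 ± 0.150 against 18.0 ± 0.881 CPM. This was 5.13-fold lower (log2 -2.36, SE 0.13, adjusted p = 4.7e-06, edgeR), and with total counts the log2 value was -0.94 (adjusted p = 0.0167). In WT cells it had 1138, 1007 and 793 counts against 2298, 2259 and 2245, or 51.8 ± 6.81 against 131 ± 1.97 CPM, 2.52-fold lower (log2 -1.33, SE 0.11, adjusted p = 5.1e-07). The spread within each group was small beside the gap in both genotypes, and the gene was called lower under all 16 alternatives in each. Of the MA9 markers, 6 of 7 tested eosinophil genes and 10 of 15 tested monocyte and macrophage genes fell as well. Of all genes tested in MA9 cells 17.5% fell. The monocyte genes Ly6c2 (log2 0.51) and F13a1 (0.25) rose. The eosinophil sums were 10.0 to 11.7 CPM in MA9 sPrdm16 against 85.0 to 130 CPM in MA9 mock, and the monocyte and macrophage sums given above overlapped. Of 22 tested neutrophil markers 7 rose and 6 fell, with sums of 2744 to 2830 against 2246 to 2715 CPM, and Retnlg was the one at 0 in MA9 mock. Of 5 tested dendritic cell markers 1 rose and 2 fell, and of 4 tested mast cell and basophil markers 0 rose and 1 fell. Of 3 tested megakaryocyte markers 1 rose and 1 fell, and of 3 tested stromal and endothelial markers 2 rose and 0 fell. The part of these cells in the fall of Cst7 was not tested.

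**Figure D5:**
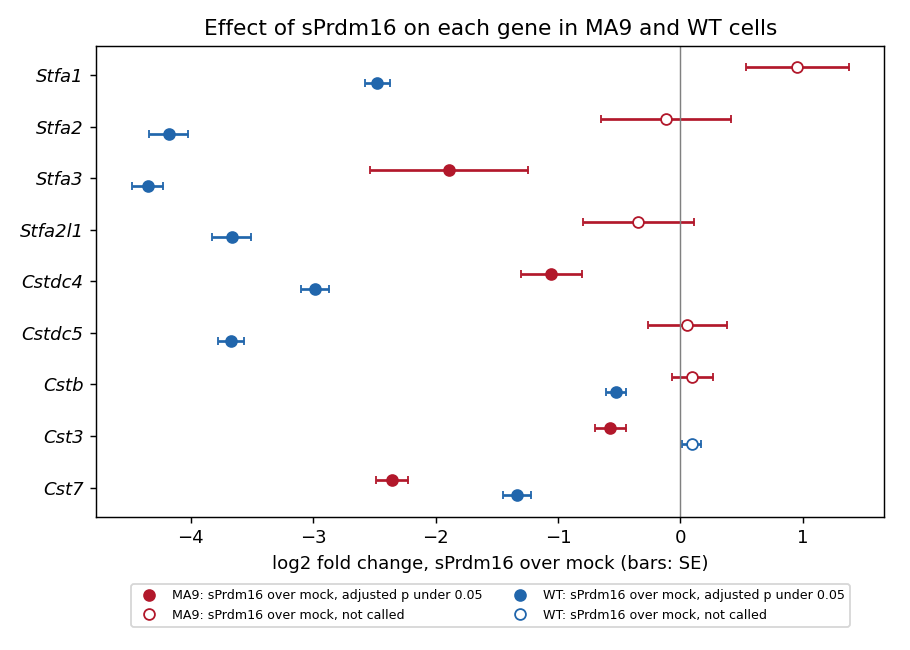
Log2 fold change (sPrdm16 over mock) of each gene in MA9 cells and in WT cells, with SE bars, where filled points passed an adjusted p of 0.05 and open points did not. The 6 stefin A genes lie between -4.35 and -2.47 in WT cells and between -1.89 and 0.95 in MA9 cells, and Cst7 is lower in both.

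The sPrdm16 effect differed between the genotypes for all 9 genes, tested as an interaction over the 12 libraries, where 28% of the 16194 genes tested were called, 16.0% with a positive and 12% with a negative difference. The difference, the MA9 effect minus the WT effect, was positive for 7 genes and negative for 2. For the stefin A sum it was 3.02 on the log2 scale (SE 0.19, adjusted p = 3.0e-09, edgeR). Among the single stefin A genes it ran from 2.04 for Cstdc4 (SE 0.23) to 4.09 for Stfa2 (SE 0.44), and it was 3.61 for Stfa1 (SE 0.29), 3.83 for Cstdc5 (SE 0.32), 3.43 for Stfa2l1 (SE 0.37) and 2.64 for Stfa3 (SE 0.46).

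For Cstb the difference was 0.72 (SE 0.14, adjusted p = 0.00105, edgeR), and it was no longer called after thinning the libraries to the same protein-coding depth (log2 0.52, adjusted p = 0.0563, the highest over 21 alternatives, the lowest being 3.1e-06). For Cst3 it was -0.58 (SE 0.15, adjusted p = 0.00669) and for Cst7 -0.94 (SE 0.17, adjusted p = 0.00038). With total counts, which move the median difference over all genes to 1.21 against 0.08, both turned positive (0.63 and 0.22, adjusted p = 0.0385 and 0.609), so the sign for these 2 genes depends on the scaling. Over 21 alternatives the adjusted p ran from 0.00038 to 0.0385 for Cst3 and from 2.8e-07 to 0.609 for Cst7. A constant difference between the tables cancels in this test, while the shift in structural RNA within the MA9 table does not.

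The proteases that stefins and cystatins block were read from a list of 11 cysteine cathepsins and legumain. In MA9 cells, where 17.1% of all genes tested rose and 17.5% fell, 1 of 7 tested on this list rose and 3 fell. The number that rose was 3 with no filter, without MA9 mock replicate 3 and in the fit on all 12 libraries, 2 with limma-voom and 5 with total counts, which left 1 fallen. Ctss, cathepsin S of antigen-presenting cells, stood at 4.47 ± 0.919 CPM in MA9 sPrdm16 and 56.0 ± 20.1 CPM in MA9 mock (log2 -3.65, SE 0.31, adjusted p = 0.00011, edgeR). Ctsh, an aminopeptidase, fell by 2.08 (SE 0.20), and with total counts its call ended (log2 -0.62, adjusted p = 0.140). Ctsc, which activates granule serine proteases and is the known target of cystatin F, fell by 0.62 (SE 0.17, adjusted p = 0.022), but with total counts it stood at 0.86 (adjusted p = 0.0114). The call of Ctsc also ended with no filter (adjusted p = 0.0672), without MA9 mock replicate 2 (0.0889) and without MA9 sPrdm16 replicates 1, 2 or 3 (0.0720, 0.0620 and 0.0849). Ctsb, the main lysosomal cathepsin B, stood at 103 ± 4.11 against 68.1 ± 11.8 CPM and rose by 0.61 (SE 0.11, adjusted p = 0.0029).

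In WT cells, where 17.5% of all genes tested rose and 16.6% fell, 1 of 10 tested on this list rose and 6 fell. The number that fell was 3 with total counts and without WT mock replicate 1 or WT sPrdm16 replicate 2 or 3, and 2 in the fit on all 12 libraries. Ctsl, cathepsin L, stood at 420 ± 22.0 CPM in WT sPrdm16 and 880 ± 61.1 CPM in WT mock (log2 -1.07, SE 0.08, adjusted p = 2.9e-07, edgeR). Ctsk, cathepsin K of bone-resorbing cells, fell by 0.99 (SE 0.11) and Ctss by 0.45 (SE 0.08). Ctsz, cathepsin Z, rose by 0.31 (SE 0.09, adjusted p = 0.0125), a call that ended without WT sPrdm16 replicate 3 (adjusted p = 0.0609), and that of Ctss ended in the fit on all 12 libraries (adjusted p = 0.0938). The list's median was -0.26 in MA9 cells and -0.24 in WT cells, against 0.03 and 0.01 over all genes. The calls of Ctsb (log2 -0.25), Ctsh (-0.31) and Ctsc (-0.23) in WT cells ended with total counts (adjusted p = 0.450, 0.305 and 0.605) and in the fit on all 12 libraries (0.0683, 0.0652 and 0.207). That of Ctsb also ended without WT mock replicate 1 (0.0687) or WT sPrdm16 replicate 2 or 3 (0.0992 and 0.0741). That of Ctsh also ended without WT mock replicate 1 or 2 (0.0888 and 0.0819) or WT sPrdm16 replicate 1, 2 or 3 (0.0783, 0.0568 and 0.0704). That of Ctsc also ended with no filter (0.0784) and without WT mock replicate 1 or 2 (0.116 and 0.0587) or WT sPrdm16 replicate 2 or 3 (0.164 and 0.0959). The interaction was called for 5 of 11, with a positive sign for Ctsl (1.48, SE 0.16) and Ctsb (0.94, SE 0.14) and a negative one for Ctss (-3.12, SE 0.29), Ctsh (-1.67, SE 0.19) and Lgmn (-2.09, SE 0.34), the legumain gene. That of Ctsh ended with total counts (log2 -0.48, adjusted p = 0.199). Lgmn was not tested in MA9 cells, where it did not pass the filter on low counts. In WT cells Lgmn was not called (log2 0.16, adjusted p = 0.248, edgeR). The interaction of Lgmn therefore rests on MA9 counts too low to be tested there.

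Of 16 other genes of the cystatin superfamily, Camp and Ngp alone were tested, and both fell in both genotypes. They encode a cathelicidin and a neutrophil granule protein, granule contents built on a cystatin-like fold, and both also stand in the neutrophil marker list. Camp stood at 0.115 ± 0.0263 CPM in MA9 sPrdm16 and 6.87 ± 0.928 CPM in MA9 mock (log2 -5.81, SE 0.34), and at 7.73 ± 0.484 CPM in WT sPrdm16 and 364 ± 41.5 CPM in WT mock (log2 -5.56, SE 0.12). Ngp stood at 169 ± 2.79 against 367 ± 36.2 CPM in MA9 cells (log2 -1.11, SE 0.07, and 0.33 with total counts, adjusted p = 0.297) and at 201 ± 15.6 against 4106 ± 564 CPM in WT cells (log2 -4.35, SE 0.11). The interaction was called for Ngp (3.32, SE 0.14), which changed less in MA9 cells as the stefin A genes did, and not for Camp (-0.15, SE 0.26, adjusted p = 0.774).

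Inhibitors of other protease classes were read from a list of 26. In MA9 cells 7 of 19 tested rose and 3 fell, with a median of 0.54 against 0.03 over all genes. Of all genes tested there 17.1% rose and 17.5% fell. The number of these inhibitors that rose was 15 with total counts and 4 in thinned libraries. The number that fell was 1 with the stricter filter. Spint2, an inhibitor of serine proteases, stood at 14.6 ± 0.382 CPM in MA9 sPrdm16 and 2.77 ± 0.712 CPM in MA9 mock (log2 2.38, SE 0.19, adjusted p = 2.9e-05, edgeR). Timp2, an inhibitor of matrix metalloproteases, rose by 1.36 (SE 0.13) and the serpin gene Serpinb6a by 0.74 (SE 0.08). Wfdc21, which encodes a small whey acidic protein domain, fell by 1.19 (SE 0.12), and with total counts stood at 0.22 (adjusted p = 0.529).

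In WT cells 5 of 23 of these inhibitors rose and 11 fell, with a median of -0.37 against 0.01 over all genes. Of all genes tested there 17.5% rose and 16.6% fell. Slpi, an inhibitor of neutrophil elastase, stood at 128 ± 8.41 CPM in WT sPrdm16 and 1932 ± 52.5 CPM in WT mock (log2 -3.92, SE 0.09, adjusted p = 3.3e-13, edgeR). Ctla2a, which resembles the propeptide of cathepsins and inhibits them, fell by 3.002 (SE 0.11) and Wfdc21 by 3.04 (SE 0.14). Serpinb1a, an inhibitor of neutrophil granule proteases, stood at 263 ± 8.91 against 773 ± 32.7 CPM (log2 -1.56, SE 0.08). In MA9 cells Slpi stood at 12.96 ± 0.723 against 9.34 ± 2.66 CPM (log2 0.51, SE 0.18, adjusted p = 0.0594) and was not called. It was called higher with no filter (0.0041), with limma-voom (0.0147), without MA9 mock replicate 3 (0.0013), in the fit on all 12 libraries (0.0013) and with total counts (log2 1.98). Over 16 alternatives the adjusted p of Slpi in MA9 cells ran from 4.2e-07 to 0.188. The interaction for Slpi was 4.52 (SE 0.17).

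The genes whose pattern over the 12 libraries was most like that of each inhibitor were found by Pearson correlation of log2 CPM among 10069 protein-coding genes, as a description. The libraries fall into 4 groups from 2 tables and share their depth and composition, so r largely follows the group means. For the stefin A sum these were Mcpt8 (r = 0.997), a basophil protease gene, Tmsb4x (0.995), the gene of an actin-binding peptide, and Cdc42ep3 (0.995). Mcpt8 stood at 3.70 CPM in MA9 sPrdm16, 3.08 in MA9 mock, 137 in WT sPrdm16 and 2093 in WT mock. For Cstb they were the kinase gene Fgr, the ferritin gene Ftl1 and Emp3 (r = 0.999 each). For Cst3 they were Cisd1 (0.999), the macrophage growth factor gene Csf1 (0.998) and Hpgds (0.997), and for Cst7 Ccdc12 (0.993), the scavenger receptor gene Msr1 (0.993) and Perp (0.992). Msr1 stood at 0.237 CPM in MA9 sPrdm16, 5.00 in MA9 mock, 20.6 in WT sPrdm16 and 90.3 in WT mock, lower with sPrdm16 in both genotypes as Cst7 was.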

How the data were processed

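Per the labels' protocols, RNeasy columns gave total RNA and Nextera XT kits the libraries, and strand and read length are not stated there. For each genotype the authors deposited a table of expected counts (estimated counts, not always whole) by gene and library, made with DRAGEN on mm10 per the submitters' processing notes. Values were rounded to whole counts, and 0 value columns were left unused. Totals were 17217159 to 37390945 counts per library.

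Genes were tested with edgeR 4.0.16 (R 4.3.3, limma 3.58.1): TMM scaling, default low-count filter (minimum count 10), robust quasi-likelihood F test, Benjamini-Hochberg adjustment over all genes tested, threshold 0.05. MA9 and WT were fitted separately on 6 libraries each, and the difference of the effects on all 12. SEs come from the F statistic. "Rose" and "fell" mean past the threshold. The steps were tested on simulated data. No pair of libraries of a group differed by less than sampling noise (chi-square per gene 3.50 to 124). RPKM used the gene lengths in the tables. Exons, coding sequences and shared windows were read from GENCODE M21 transcripts with Python 3.11.15 and Biopython 1.88. The gene positions of the 9 members equal those in the tables.

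The members and lists were chosen with earlier results of these data known. Named genes are the 9 members, up to 4 called genes with the smallest p per related list and genotype, and the 3 genes most like each of Cstb, Cst3, Cst7 and the stefin A sum with at least 5 CPM in their highest group. A few genes tied to these by an interaction or a paralogue were named after their values were seen. Symbols in the lists that the tables do not hold were left out. Alternatives were RLE scaling, total counts, protein-coding genes only, DESeq2 1.42.0, limma-voom, no low-count filter or one at 5 CPM in 3 libraries, the replicate number as a block, each replicate left out, a fit on all 12 libraries, thinned libraries and the stefin A genes summed.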

Additional observations from a re-analysis of the deposited data

Results flagged for a closer look

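The effect of sPrdm16 differed between MA9 and WT cells for 21 genes named by the rule, by the interaction over 12 libraries (edgeR, adjusted over all genes). Each value is the MA9 log2 effect minus the WT log2 effect. Among the members the difference was 3.61 for Stfa1, 4.09 for Stfa2, 2.64 for Stfa3, 3.43 for Stfa2l1, 2.04 for Cstdc4, 3.83 for Cstdc5 and 0.72 for Cstb. It was -0.58 for Cst3 and -0.94 for Cst7, and these 2 signs turned with total counts. Among the related genes with a positive difference it was 1.99 for Csta2, 3.32 for Ngp, 4.52 for Slpi, 1.93 for Wfdc21, 2.33 for Serpinb1a, 1.66 for Spint2, 1.71 for Timp2, 1.19 for Serpinb6a, 1.48 for Ctsl and 0.94 for Ctsb. It was -3.12 for Ctss and -1.67 for Ctsh. The call of Csta2 ended with limma-voom (adjusted p = 0.0505) and in thinned libraries (log2 1.61, adjusted p = 0.112), and that of Ctsh with total counts (adjusted p = 0.199).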

How the results depend on the processing

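In WT cells, 152 of 153 results of members over the alternatives kept their direction and side of the threshold. For the setting with the stefin A genes summed, these results repeat the sum under each stefin A gene. The exception was Cst3 with total counts, which gave 1 member risen and 1501 genes fallen over all genes. In the interaction all but 3 such results did, and in MA9 cells 127 did while 10 ended, 7 became calls and 3 reversed. The 10 include the stefin A sum (log2 -0.30, adjusted p = 0.190, edgeR) under Stfa3 and under Cstdc4, which is the same result. Total counts in MA9 gave 11489 genes risen and 607 fallen, with 5 members risen and 1 fallen. Stfa2 then stood at 1.21, Cstdc4 at 0.44, Cst3 at 0.90, Ngp at 0.33, Wfdc21 at 0.22 and Ctsc at 0.86. The interaction with total counts gave 8176 positive and 342 negative genes and 0 negative members, with Cst3 at 0.63, Cst7 at 0.22, Ctsz at 1.14 and Ctsc at 0.92. In these cases the scaling moves the median of all genes, to 1.43 in MA9 and 1.21 in the interaction. With no filter, with limma-voom and in the fit on all 12 libraries 1 member rose in MA9 cells (Stfa1). Leaving out 1 replicate in MA9 gave 0 to 1 members risen, 3 to 4 fallen and 1533 to 3268 genes risen (1533, 1556 and 1600 without MA9 sPrdm16 replicates 1, 2 and 3, 3268 without MA9 mock replicate 3), and the cause was not tested. The deviations of same-numbered libraries had correlations of -0.06 to 0.05, so no pairing by number was seen. With 3 libraries per group these values cannot exclude one. With the replicate block 0 members rose and 3 fell in MA9, where 2103 genes rose and 2088 fell, 0 and 8 in WT, and the interaction counted 7 positive and 2 negative members. Stfa3 in MA9 was not called with the block (adjusted p = 0.141). With protein-coding genes only, with the stricter filter and in thinned libraries Stfa3 in MA9 did not pass the filter and has no value. MA9 mock counts of the stefin A genes, 6 to 146 per gene and library, limit what can be seen there.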
